A study of Mus musculus with 18 samples.

Results

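The genes described here encode 10 receptors with which macrophages bind modified lipoproteins, microbes and debris. They are the scavenger receptors Marco, Msr1, Cd36, Cd163 and Olr1 and the C-type lectin receptors Mrc1, Clec7a, Clec4d, Clec4e and Clec4n. They were chosen by gene symbol, from a list that names these receptors, and make up 10 of the 22485 genes on the arrays. Msr1 had 2 probes, which were averaged, and each of the other 9 genes had 1. The cells were mouse macrophages grown out of bone marrow, from animals aged 8 to 10 weeks, with M-CSF (10 ng/ml, 7 days). The groups were 5 samples of Nrf2-/- cells under heme and LPS, 3 samples of Nrf2+/+ cells under heme and LPS, 4 samples of Nrf2-/- cells under LPS, 3 samples of Nrf2+/+ cells under LPS and 3 samples of Nrf2+/+ cells under albumin. Nrf2-/- cells, here called knockout, lack the antioxidant transcription factor NRF2, which the gene Nfe2l2 encodes. Heme, the iron-holding group of hemoglobin, was given bound to albumin (200 µM, 4 h), and LPS, bacterial endotoxin, followed (10 ng/ml, 4 h). Albumin was given for 4 h. The labels of the LPS groups name no albumin, and they leave unsaid whether it was given before LPS. The design holds no knockout group without LPS, so LPS against albumin could be compared in wild type only.

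Scavenger receptors take up oxidised lipids, particles and dying cells, and macrophages are the cell in which most of them were first studied. C-type lectin receptors recognise sugars and glycolipids of fungi and bacteria, and several of them signal through the kinase SYK and the adaptor CARD9 to NF-kB. Clec7a (Dectin-1) carries its own signalling motif, while Clec4e (Mincle), Clec4d (MCL) and Clec4n (Dectin-2) couple to the FcR gamma chain encoded by Fcer1g. Mrc1, the mannose receptor, and Cd163, the receptor for hemoglobin bound to haptoglobin, are both markers of alternatively activated macrophages.

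Each value is the log2 ratio of a sample to a reference of untreated macrophages on the same 2-colour array, so that 0 is the level of the reference and the level of one gene cannot be set against that of another. On the 9 knockout arrays Nfe2l2 had no value other than 0, against 0.13, 1.0 and 0.80 in heme-treated wild type, -0.59, -0.45 and 0.16 in wild type with LPS alone and -0.22, 0.00 and 0.00 under albumin. A value of exactly 0 may also be a spot without a usable signal. These zeros therefore cannot be read as the level of the reference, and arrays b and c under albumin gave 0.00 as well. Values of exactly 0 made up 44.3% to 48.8% of the features on the LPS-treated arrays lettered a in the labels and 17.9% to 41.3% on the others. The arrays within a group correlated with r of 0.55 to 0.89. Of the 11 macrophage markers examined, none was at 0 on every array of any group. In bulk RNA, fewer cells of a type and less RNA per cell cannot be told apart.

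Promoter windows of 5 members are shown. Each of these genes was called in a comparison described below, and 4 of them lie in a pair of lectin gene clusters on chromosome 6. Marco and Mrc1 were also called, and their windows are not shown. Windows run from 250 bases before the start of transcription to 50 after it, 5′ to 3′, from RefSeq on GRCm38.p6. Capitals mark the core GAGGAA, on either strand, of PU.1, the factor that sets up the macrophage lineage, or the AP-1 site TGANTCA, also searched on both strands. Clec7a lies on the minus strand at chr6:129472730-129473029, Cd36 on the minus strand at chr5:17835847-17836146, and Clec4d on the plus strand at chr6:123261857-123262156. Clec4e lies on the minus strand at chr6:123289822-123290121 and Olr1 on the minus strand at chr6:129507116-129507415.
Clec7a: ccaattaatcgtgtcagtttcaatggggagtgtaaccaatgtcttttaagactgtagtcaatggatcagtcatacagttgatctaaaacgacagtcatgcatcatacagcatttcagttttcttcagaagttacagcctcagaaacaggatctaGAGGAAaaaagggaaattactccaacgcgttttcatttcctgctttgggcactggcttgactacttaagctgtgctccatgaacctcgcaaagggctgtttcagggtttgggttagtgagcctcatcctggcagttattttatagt
Cd36: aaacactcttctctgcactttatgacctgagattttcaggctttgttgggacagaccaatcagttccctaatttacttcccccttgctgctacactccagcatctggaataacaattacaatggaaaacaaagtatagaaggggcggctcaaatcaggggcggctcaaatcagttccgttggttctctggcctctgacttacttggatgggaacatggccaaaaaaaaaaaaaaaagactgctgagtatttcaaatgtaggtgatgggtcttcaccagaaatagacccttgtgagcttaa
Clec4d: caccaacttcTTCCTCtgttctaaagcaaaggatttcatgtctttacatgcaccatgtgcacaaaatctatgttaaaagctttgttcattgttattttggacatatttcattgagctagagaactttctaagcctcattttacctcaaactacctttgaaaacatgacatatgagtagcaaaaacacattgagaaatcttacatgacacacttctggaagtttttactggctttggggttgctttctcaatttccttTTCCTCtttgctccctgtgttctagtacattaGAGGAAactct
Clec4e: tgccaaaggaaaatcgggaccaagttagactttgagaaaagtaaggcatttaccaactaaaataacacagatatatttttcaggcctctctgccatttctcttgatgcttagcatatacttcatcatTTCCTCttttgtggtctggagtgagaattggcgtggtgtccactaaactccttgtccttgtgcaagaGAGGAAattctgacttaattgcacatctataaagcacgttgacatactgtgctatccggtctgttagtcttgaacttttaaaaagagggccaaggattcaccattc
Olr1: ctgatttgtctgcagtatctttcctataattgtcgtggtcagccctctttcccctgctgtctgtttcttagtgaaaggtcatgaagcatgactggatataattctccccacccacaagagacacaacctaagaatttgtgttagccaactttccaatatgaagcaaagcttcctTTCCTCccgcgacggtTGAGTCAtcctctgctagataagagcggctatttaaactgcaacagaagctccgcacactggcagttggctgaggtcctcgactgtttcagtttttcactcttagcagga

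Windows were found for 8 of the 10 members, not for Msr1 and Clec4n. The PU.1 core was in 6 of the 8, where 28.3% of all 32851 mouse windows held it, and the AP-1 site was in 1 of the 8, Olr1, against 7.81% of all windows. The core of the antioxidant response element, TGACNNNGC, the sequence NRF2 binds, was in 0 of the 8 windows and in 12.4% of all windows. The direct repeat of the PPAR nuclear receptors, AGGTCA repeated with 1 base between, was in 0 of the 8 and in 0.0396% of all. A looser NF-kB pattern, GGG and CC with any 5 bases between, not capitalised, was in 4 of the 8 and in 50.8% of all windows. These are matches of letters in these windows, given as a description.

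**Figure D1:**
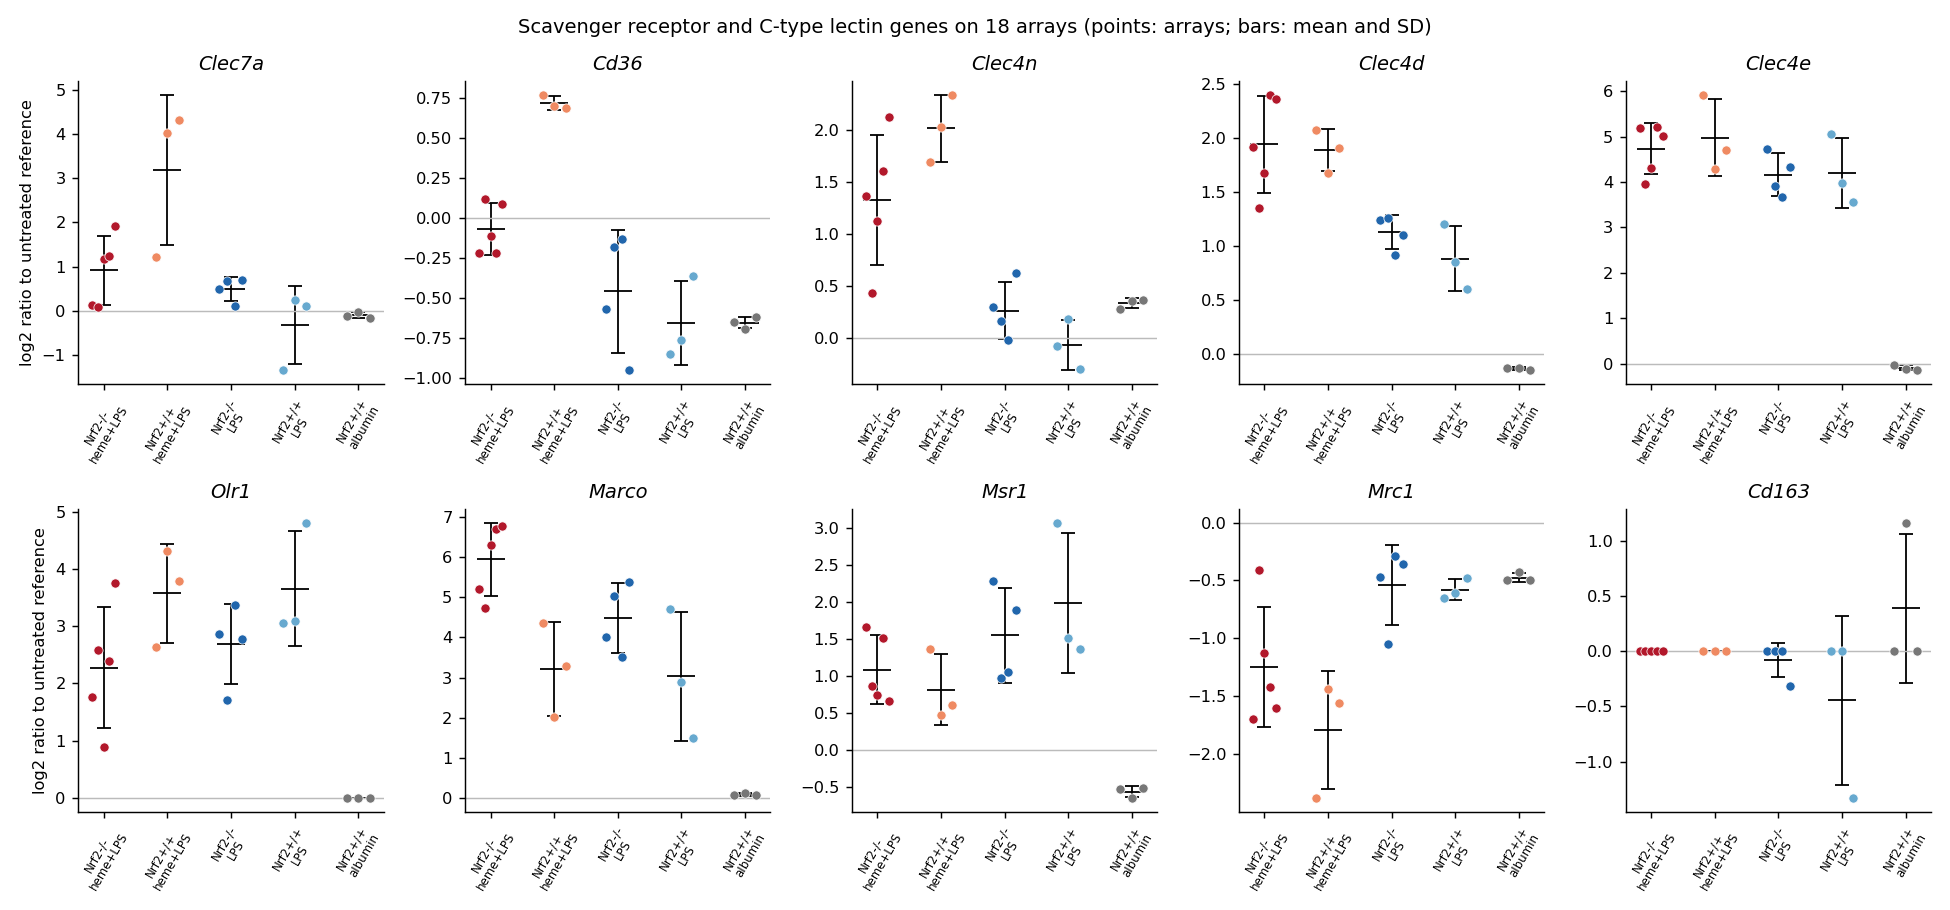
Log2 ratio to the untreated reference for the 10 receptor genes, with 1 panel per gene and its own vertical scale. Points are arrays and bars are the group mean with its SD (3 to 5 arrays). Wild-type cells under heme and LPS stand highest for Clec7a and Cd36, knockout cells under heme and LPS stand highest for Marco, and the albumin arrays stand lowest for Clec4d, Clec4e, Olr1, Marco and Msr1.

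LPS alone was set against albumin in wild type to see which receptors endotoxin moves. Of the 10 members 5 were higher and 0 were lower at an adjusted p under 0.05 (limma, two-sided, adjusted over all genes). Of all genes 28.6% were called in either direction in this comparison and 12.3% were called higher. The median difference of the members was 0.51, against -0.00 over all genes, on the log2 scale.

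Clec4e, the Mincle receptor for mycobacterial cord factor, gave the largest rise among the members with a measured level in both groups. Its log2 ratios were 5.06, 3.97 and 3.56 under LPS, against -0.03, -0.11 and -0.13 under albumin. The difference was 4.29 ± 0.47 (SE, limma adjusted p = 1.02e-05), which is 19.5-fold. Clec4d, its neighbour and partner receptor, was at 1.20, 0.85 and 0.60 under LPS, against -0.13, -0.13 and -0.15 under albumin. It rose 2.02-fold, by 1.02 ± 0.24 (adjusted p = 0.00445, limma). For both genes every LPS array stood above every albumin array.

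Of the scavenger receptors, Msr1, the class A receptor for acetylated LDL, was at 3.08, 1.51 and 1.37 under LPS, against -0.53, -0.65 and -0.52 under albumin. This was a rise of 2.55 ± 0.46 (limma adjusted p = 0.000692), and both probes of the gene gave it, at 2.24 and 2.86. Marco, a class A receptor for bacteria and particles, was at 4.70, 2.89 and 1.5 under LPS, against 0.08, 0.13 and 0.06 under albumin. Its LPS arrays spread over more than 3 log2 units, yet none reached the albumin arrays, and the rise was 2.94 ± 0.80 (limma adjusted p = 0.0126). Without array a of the LPS group it was 2.10, with an adjusted p of 0.0673, and with only the compared groups in the fit the adjusted p was 0.0589. Olr1 (LOX-1), the receptor for oxidised LDL, stood at 0 on each of the 3 albumin arrays and at 3.05, 3.09 and 4.81 under LPS (limma adjusted p = 0.000814). No fold is given for it, since the albumin value has no size.

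The other members were not called under LPS alone. Cd36, the fatty acid and oxidised LDL receptor, was at -0.85, -0.76 and -0.36 under LPS, against -0.65, -0.69 and -0.62 under albumin, with a difference of -0.00 (95% interval -0.40 to 0.39). Mrc1 was at -0.65, -0.61 and -0.48 under LPS, against -0.50, -0.43 and -0.50 under albumin. Clec7a, the beta-glucan receptor, was at -1.34, 0.25 and 0.11 under LPS, against -0.11, -0.03 and -0.16 under albumin, with an interval of -1.70 to 1.25. The LPS arrays of Clec4n, the receptor for fungal mannans, stood below its albumin arrays, at -0.08, 0.18 and -0.30 against 0.28, 0.36 and 0.37, but the difference of -0.40 ± 0.32 had a limma adjusted p of 0.395.

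Cd163 carried little information. It was listed at exactly 0 on 15 of 18 arrays, among them all 8 arrays with heme. The 3 other values were -0.31 on array d of the knockout LPS group, -1.33 on array c of the wild-type LPS group and 1.17 on array b of the albumin group. It was called in none of the 7 comparisons. Leaving out array a or b of the wild-type LPS group put it at -1.05 against albumin (adjusted p = 0.0417 and 0.0416, limma).

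Heme given before LPS was then set against LPS alone in wild type. Clec7a, Clec4n, Cd36 and Clec4d were higher and Mrc1 was lower, so that 5 of the 10 members were called, where 14.7% of all genes were called, 8.34% higher and 6.35% lower. The median difference of the members was 0.61, against 0.00 over all genes. Of the 4 members that rose, Clec4d was also among the 5 that LPS alone raised. Clec7a, Clec4n and Cd36 had not been called under LPS alone.

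Clec7a had log2 ratios of 1.23, 4.02 and 4.31 under heme and LPS, against -1.34, 0.25 and 0.11 under LPS. The difference was 3.51 ± 0.69 (limma adjusted p = 0.00269), or 11.4-fold. Array a was the lowest in each of these groups, so the heme arrays spread widely, and the groups did not overlap. Array a exceeded its namesake under LPS by 2.57, array b by 3.77 and array c by 4.20.

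Clec4n was at 1.69, 2.02 and 2.33 under heme and LPS, against -0.08, 0.18 and -0.30 under LPS. It rose 4.23-fold, by 2.08 ± 0.32 (adjusted p = 0.00039, limma). Clec4d was at 2.07, 1.68 and 1.91 under heme and LPS, against 1.20, 0.85 and 0.60 under LPS, and rose 2.01-fold (1.0 ± 0.24, limma adjusted p = 0.00903). Clec4e, the third of these FcR gamma-coupled lectins, was at 5.92, 4.29 and 4.70, against 5.06, 3.97 and 3.56. Its groups overlapped and its difference of 0.77 ± 0.47 had an adjusted p of 0.378 (limma). With quantile normalization of the arrays it was 1.81 with an adjusted p of 0.00162.

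Cd36 gave the tightest values. It was at 0.77, 0.70 and 0.69 under heme and LPS, against -0.85, -0.76 and -0.36 under LPS. Cd36 thus lay above the untreated reference on every wild-type array with heme and below it on every wild-type array without heme. The latter include the albumin arrays, at -0.65, -0.69 and -0.62, so for Cd36 the reference level is not that of albumin-treated cells. The rise over LPS alone was 1.38 ± 0.19 (limma adjusted p = 0.000143), or 2.60-fold. Mrc1 was at -2.38, -1.44 and -1.56 under heme and LPS, against -0.65, -0.61 and -0.48 under LPS, and fell 2.32-fold (-1.21 ± 0.31, limma adjusted p = 0.0143). Without array a of the heme group its difference was -0.92, with an adjusted p of 0.0713. Without the LPS-treated arrays lettered a it was -0.95, with an adjusted p of 0.12.

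Msr1 was at 1.36, 0.47 and 0.61 under heme and LPS, against 3.08, 1.51 and 1.37 under LPS. The difference was -1.17 ± 0.46 (limma adjusted p = 0.12). The groups did not overlap, although array a of the heme group, at 1.36, came close to the lowest LPS array, at 1.37. Between arrays of the same letter Msr1 differed by -1.72, -1.04 and -0.76. With the replicate letter as a block its difference had a limma adjusted p of 0.00933. Over all genes, the deviations of same-lettered arrays from these group means correlated with r of only 0.01 to 0.48.  Marco was at 4.35, 2.01 and 3.29 under heme and LPS, against 4.70, 2.89 and 1.5 under LPS, with a 95% interval of the difference from -1.53 to 1.91. Olr1 was at 2.63, 4.32 and 3.78 under heme and LPS, against 3.05, 3.09 and 4.81 under LPS, with an interval from -1.5 to 1.36. For these 2 genes the intervals hold changes of over 1 log2 unit in either direction.

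Fits on only the compared groups, which estimate the spread from fewer arrays and from those groups alone, called 2 of the 10 members. Over all genes they called 1545, where the main fit called 3303. Clec7a then had an adjusted p of 0.144, Clec4d of 0.0578 and Mrc1 of 0.0863. The main fit pools the spread of a gene over all groups, and these spreads were unequal. For Clec7a the SD was 1.70 with heme and LPS and 0.88 with LPS in wild type. It was 0.78 and 0.27 in the knockout groups and 0.06 under albumin. The part of this in the lost calls was not tested.

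Markers of other cells were set beside these values, since Clec4d and Clec4e are also known from neutrophils. Over all genes 8.34% were higher and 6.35% lower with heme in wild type. Of 10 neutrophil markers, 2 were higher with heme in wild type and 0 were lower, namely Elane by 1.08 ± 0.23 (limma adjusted p = 0.00468) and S100a8 by 2.05 ± 0.49 (limma adjusted p = 0.0102). The mean log2 ratio of the 10 ran from 0.44 to 1.24 on the heme arrays, against 0.06 to 0.77 on the LPS arrays, and none of the 10 was at 0 on every array. S100a8 lost its call when array b of the heme group was left out (adjusted p = 0.0509) or array a of the LPS group (0.0549), and Elane lost its call without the LPS-treated arrays lettered a (0.0754). Of 11 macrophage markers, 0 were higher and 4 were lower: Fcgr1, Mertk, Lgals3 and Aif1. Mertk was not called without heme array a or c or LPS array a, at adjusted p of 0.0501 to 0.0689. The mean of the 11 ran from -0.88 to -0.45 with heme, against 0.40 to 0.49 with LPS alone. The part of these shifts in the members' values was not tested.

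The same treatment was compared in knockout cells. Clec4n and Clec4d were higher, so that 2 of the 10 members were called, where 6.77% of all genes were called, 4.1% higher and 2.67% lower. The knockout and wild-type comparisons use different arrays. The members' median difference was 0.40, against 0.00 over all genes.

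Clec4d was at 1.92, 1.35, 1.68, 2.40 and 2.36 in knockout cells under heme and LPS, against 1.24, 1.26, 0.92 and 1.1 under LPS. All 5 heme arrays stood above all 4 LPS arrays, and the rise was 0.81 ± 0.19 (limma adjusted p = 0.0208). Between arrays of the same letter it was 0.68, 0.08, 0.76 and 1.3. The call was lost without array c or array d of the LPS group (adjusted p of 0.0634 and 0.0571).

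Clec4n was at 1.36, 0.43, 1.12, 1.60 and 2.12 in knockout cells under heme and LPS, against 0.30, 0.16, -0.02 and 0.62 under LPS. Array b of the heme group lay within the range of the LPS arrays, and the rise was 1.06 ± 0.26 (limma adjusted p = 0.0237). Without array d of the heme group, or array a, b or c of the LPS group, the adjusted p lay at 0.0585 to 0.0707. Without the LPS-treated arrays lettered a neither gene was called, at adjusted p of 0.0568 for Clec4d and 0.0967 for Clec4n.

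Clec7a was at 0.14, 0.09, 1.18, 1.25 and 1.91 in knockout cells under heme and LPS, against 0.49, 0.68, 0.12 and 0.71 under LPS. These groups overlapped, and the difference was 0.42 ± 0.57 (limma adjusted p = 0.837) with an interval from -0.80 to 1.63. Cd36 was at -0.22, 0.12, -0.11, -0.22 and 0.09, against -0.57, -0.18, -0.13 and -0.95, with a difference of 0.39 ± 0.15 (limma adjusted p = 0.178). The upper end of its interval, 0.71, lay below the lower end in wild type, 0.98. These intervals are not adjusted over genes, and the test of the difference, given below, did not call Cd36 (limma adjusted p = 0.0803).

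Mrc1 was at -1.70, -0.41, -1.13, -1.42 and -1.60 in knockout cells under heme and LPS, against -0.47, -1.05, -0.29 and -0.36 under LPS. Arrays b of both groups fell inside the range of the other group, and the difference of -0.71 ± 0.25 had a limma adjusted p of 0.129. Without array b of the heme group it was -0.92, with an adjusted p of 0.0183. Marco was at 5.21, 4.73, 6.31, 6.70 and 6.77 under heme and LPS, against 4.00, 5.03, 3.52 and 5.39 under LPS, a difference of 1.46 ± 0.66 (limma adjusted p = 0.268).

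Msr1, Clec4e and Olr1 were also not called in the knockout. Msr1 was at 1.66, 0.86, 0.74, 1.52 and 0.66 under heme and LPS, against 2.29, 0.97, 1.06 and 1.89 under LPS. Clec4e was at 5.18, 3.96, 4.31, 5.21 and 5.01, against 4.73, 3.91, 3.68 and 4.34. Olr1 was at 1.76, 2.58, 0.89, 2.39 and 3.75, against 2.87, 1.71, 3.37 and 2.78. In each of the 3 the groups overlapped.

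The same markers were read in the knockout, where 4.1% of all genes were higher and 2.67% lower with heme. Of the 10 neutrophil markers 1 was higher with heme, Elane, by 0.98 ± 0.19 (limma adjusted p = 0.0056), and the mean of the 10 ran from 0.39 to 0.96 with heme, against 0.13 to 0.53 with LPS alone. Of the 11 macrophage markers 1 was lower, Fcgr1, at -2.44 ± 0.62 (limma adjusted p = 0.0288), and their mean ran from -0.31 to 0.29, against 0.10 to 0.56. The call for Fcgr1 was lost without array c of the heme group or array a, b or d of the LPS group, at adjusted p of 0.0524 to 0.0987. Their part in the knockout values was not tested.

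Whether heme acted differently in knockout and wild type was tested as the heme effect in knockout minus that in wild type. None of the 10 members was called by limma, where 0.947% of all genes were. An unadjusted p under 0.05 was found for 3, all with the smaller heme effect in the knockout. These were Cd36 at -0.99 ± 0.24 (limma adjusted p = 0.0803), Clec7a at -3.09 ± 0.89 (limma adjusted p = 0.169) and Clec4n at -1.02 ± 0.41 (limma adjusted p = 0.476). The share of all genes at the unadjusted threshold was not counted, so the 3 cannot be read as many or few. Clec4d differed by -0.20 ± 0.31, with an interval from -0.85 to 0.46.

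In 24 of 26 alternatives Cd36 and Clec7a each stayed uncalled, at limma adjusted p of up to 0.342 for Cd36 and 0.396 for Clec7a. Each passed the threshold when 1 particular array was left out. Without array d of the knockout LPS group Cd36 was at -1.15, with an adjusted p of 0.0119. Without array a of the wild-type heme group Clec7a was at -4.07, with an adjusted p of 0.0071. With the LPS-treated arrays lettered a left out Clec7a was at -3.38, with an adjusted p of 0.0194.

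**Figure D2:**
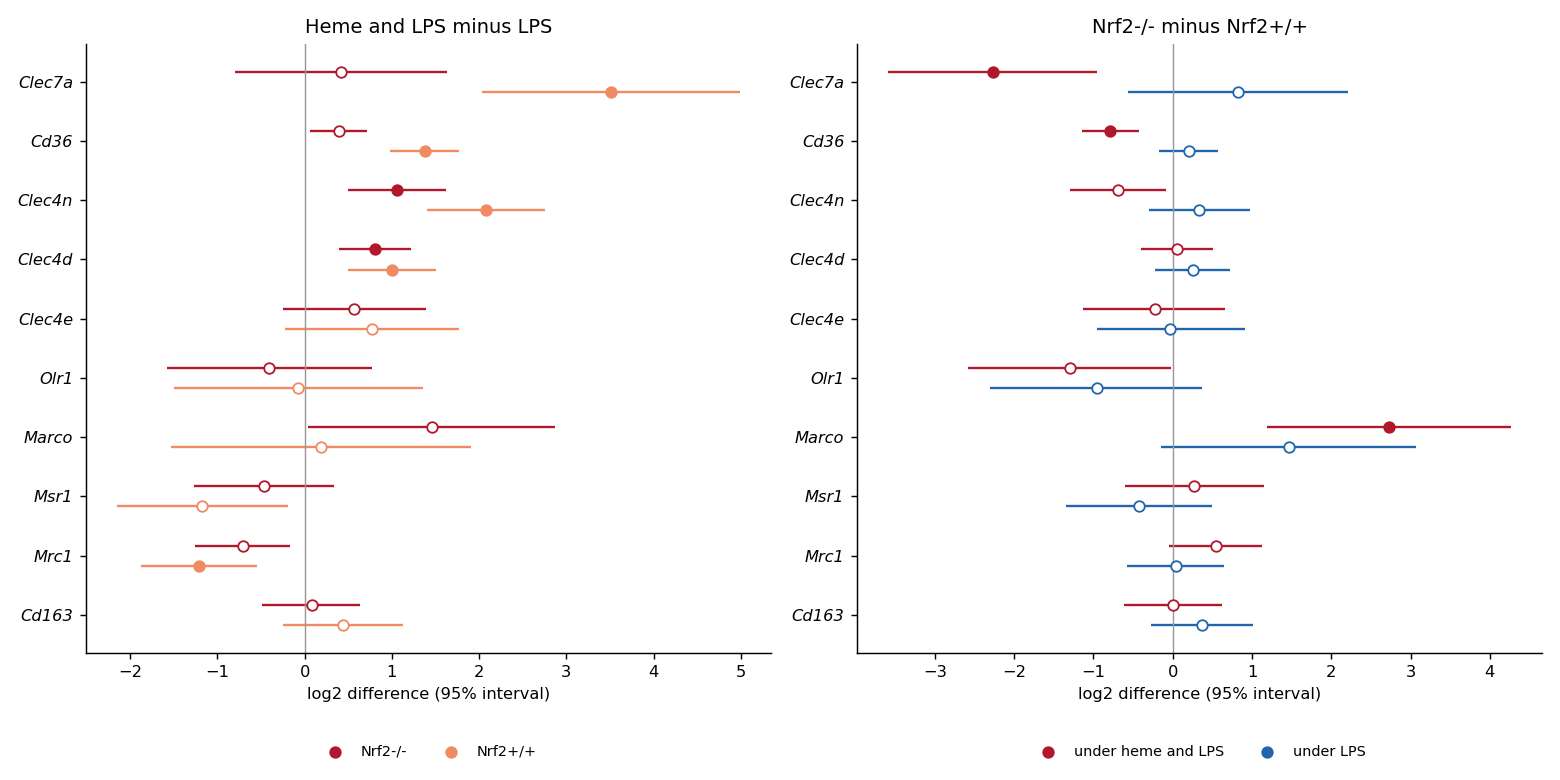
Log2 differences of the 10 receptor genes with their 95% intervals, heme and LPS minus LPS on the left and Nrf2-/- minus Nrf2+/+ on the right. Filled points passed an adjusted p of 0.05 (limma), open points did not. Clec7a stands at 0.42 in the knockout and 3.51 in wild type, Cd36 at 0.39 and 1.38, while Clec4d stands at 0.81 and 1.0.

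Knockout and wild type were compared directly under each treatment. Under LPS alone 0 of the 10 members were called by limma and 0 had an unadjusted p under 0.05, where 0.00445% of all genes, a single gene, was called. Marco was at 4.00, 5.03, 3.52 and 5.39 in knockout cells under LPS, against 4.70, 2.89 and 1.5 in wild-type cells, and the interval of its difference ran from -0.15 to 3.07. Clec7a was at 0.49, 0.68, 0.12 and 0.71, against -1.34, 0.25 and 0.11, with an interval from -0.56 to 2.21. The interval for Cd36 was narrower, from -0.17 to 0.57.

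Under heme and LPS 3 of the 10 members differed, Marco being higher in the knockout and Cd36 and Clec7a lower, where 5.29% of all genes were called. Of all genes 2.13% were higher and 3.16% lower in the knockout. Cd36 was at -0.22, 0.12, -0.11, -0.22 and 0.09 in knockout cells, against 0.77, 0.70 and 0.69 in wild-type cells. The groups did not overlap and differed by -0.79 ± 0.17 (limma adjusted p = 0.0108), or 1.73-fold. Leaving out the LPS-treated arrays lettered a gave -0.73, with an adjusted p of 0.0818.

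Clec7a was at 0.14, 0.09, 1.18, 1.25 and 1.91 in knockout cells, against 1.23, 4.02 and 4.31 in wild-type cells. It was 4.82-fold lower (-2.27 ± 0.62, limma adjusted p = 0.0474), but wild-type array a lay inside the knockout range. Its call was lost without wild-type array b or c (-1.85 and -1.71) and without knockout array a, b, c or d, at adjusted p of 0.071 to 0.207.

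Marco was at 5.21, 4.73, 6.31, 6.70 and 6.77 in knockout cells, against 4.35, 2.01 and 3.29 in wild-type cells. Every knockout array lay above every wild-type array, and the difference was 2.73 ± 0.72 (limma adjusted p = 0.0411), or 6.62-fold. With the replicate letter as a block it was 2.21, with an adjusted p of 0.144. The call was also lost without wild-type array b (2.12) or c, or without knockout array c, d or e, at adjusted p of 0.08 to 0.192.

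Clec4n differed by -0.69 ± 0.28 in the knockout (limma adjusted p = 0.231), and with the replicate block by -1.02 (limma adjusted p = 0.0335). Olr1 was at 1.76, 2.58, 0.89, 2.39 and 3.75 in knockout cells, against 2.63, 4.32 and 3.78 in wild-type cells, a difference of -1.3 ± 0.60 (limma adjusted p = 0.302). Clec4d and Clec4e were not called, with intervals of the difference of -0.40 to 0.51 and -1.13 to 0.66.

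Between the genotypes under heme and LPS, 2.13% of all genes were higher and 3.16% lower in the knockout. Of the 11 macrophage markers 2 were higher, Fcgr1 by 3.09 ± 0.68 (limma adjusted p = 0.0143) and Aif1 by 0.68 ± 0.13 (limma adjusted p = 0.0051). Of the neutrophil markers 1 was lower, S100a8, at -1.95 ± 0.44 (limma adjusted p = 0.017). Their part in the differences of Marco, Cd36 and Clec7a was not tested.

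Set against albumin, heme and LPS together moved 9 of the 10 members in wild type, where 27.3% of all genes were called. The 8 that were higher were Clec4e by 5.06, Clec7a by 3.29, Marco by 3.12, Clec4d by 2.02, Clec4n by 1.67, Msr1 by 1.38, Cd36 by 1.37 and Olr1, whose albumin arrays were all at 0. Of all genes 12.9% were higher and 14.4% lower. Mrc1 was lower, at -1.32 ± 0.31 (limma adjusted p = 0.00519). This comparison shares its heme arrays with one above and its albumin arrays with the other. With only the compared groups in the fit Clec7a had an adjusted p of 0.0598. The call for Msr1 (limma adjusted p = 0.0367) was lost when any albumin array or array a or c of the heme group was left out, at adjusted p of 0.0595 to 0.135. Its 2 probes gave 1.05 and 1.71.

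Over the 5 groups the members thus took different orders, given here as a description of the means (SD). Clec7a was highest in wild type under heme and LPS, at 3.19 ± 1.70 (SD, n = 3), followed by knockout under heme and LPS at 0.92 ± 0.78 (n = 5), whose arrays overlapped with those above and with knockout under LPS at 0.50 ± 0.27 (n = 4). Cd36 was at 0.72 ± 0.04 in wild type under heme and LPS, with a gap to knockout under heme and LPS at -0.07 ± 0.17, below which neighbouring groups overlapped. Marco ran from 5.94 ± 0.92 in knockout under heme and LPS through 4.49 ± 0.87 in knockout under LPS and 3.22 ± 1.18 and 3.03 ± 1.61 in the wild-type groups with LPS, each overlapping the next, to 0.09 ± 0.04 under albumin.

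Clec4d divided into groups with heme, at 1.94 ± 0.45 in knockout and 1.89 ± 0.20 in wild type, groups with LPS alone, at 1.13 ± 0.16 in knockout and 0.88 ± 0.30 in wild type, and albumin at -0.13 ± 0.01. Neither gap between these levels was bridged by any array, while the genotypes overlapped at each level. Clec4e overlapped among all 4 groups with LPS, whose means were 4.17 to 4.97, and stood apart from albumin. Mrc1 was lowest in wild type under heme and LPS, at -1.79 ± 0.51, and its neighbouring groups overlapped at every step. Clec4n was at 1.33 ± 0.62 in knockout and 2.01 ± 0.32 in wild type with heme, which overlapped, and both stood above every albumin array (0.34 ± 0.05). The knockout heme arrays overlapped with those of knockout under LPS (0.26 ± 0.27). Msr1 and Olr1 overlapped at each step among the 4 groups with LPS, and all of these stood above albumin.

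Of the members 6 of 10 lie on chromosome 6, and 5 of these in a pair of C-type lectin gene clusters. Clec4n, Clec4d and Clec4e close a run of 9 measured genes that starts with Clec4a1, and Clec7a and Olr1 close a run of 10 measured genes that starts with Clec2d. The gene order is that of RefSeq, and the neighbours were chosen after their values were seen. With heme in wild type 8.34% of all genes were higher and 6.35% lower. In the first run 3 of the 9 genes were higher and 0 lower. Besides Clec4n and Clec4d this was Clec4b1, a gene of the same DCIR and DCAR family, at 2.35 ± 0.35 (limma adjusted p = 0.000356).

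Clec4b1 averaged 2.62 ± 0.66 (SD, n = 3) in heme-treated wild-type cells, against 0.27 ± 0.34 under LPS (n = 3). In the knockout it averaged 1.15 ± 0.57 (n = 5), against 0.03 ± 0.26 (n = 4), and rose by 1.12 ± 0.29 (limma adjusted p = 0.0315). The knockout call was lost without array c, d or e of the heme group or array a, b or d of the LPS group, at adjusted p of 0.0591 to 0.11. At the other end of the run, Clec4a1 and Clec4a3 differed with heme in wild type by -1.36 ± 0.59 and -1.72 ± 0.68, both short of the threshold (limma adjusted p = 0.17 and 0.124). The run thus held genes on both sides of 0, as the plot of the clusters shows.

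In the second run, 1 of 10 genes was higher with heme in wild type, Clec7a, against 8.34% of all genes. Lower were 3, against 6.35% of all genes. The first of the 3, Cd69, an early activation antigen with a C-type lectin fold, averaged 5.18 ± 1.17 under heme and LPS, against 9.64 ± 0.74 under LPS (SD, n = 3 each), and fell by 4.47 ± 0.68 (limma adjusted p = 0.000372). Clec2d, a ligand of an inhibitory natural killer cell receptor, averaged -1.02 ± 0.32, against 1.26 ± 0.47, and fell by 2.28 ± 0.58 (limma adjusted p = 0.0149). Clec12a, an inhibitory receptor for uric acid crystals, averaged -0.85 ± 0.66, against 0.76 ± 0.32, and fell by 1.61 ± 0.29 (limma adjusted p = 0.00131). The call for Clec2d was lost without array b of either group (-2.09 and -2.05, adjusted p of 0.0577 and 0.065). The rise of Clec7a and these 3 falls thus lay within 1 run of genes.

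In the knockout, where 6.77% of all genes were called with heme, limma called 0 of these 10. Only 1, Cd69, had an unadjusted p under 0.05. Its difference was -1.25 ± 0.56 (limma adjusted p = 0.257). For Clec12a the test of the difference between genotypes passed, at 1.74 ± 0.37 (limma adjusted p = 0.0401). That call was lost in 13 of 26 alternatives. For Cd69 the difference between genotypes was 3.22 ± 0.88 (limma adjusted p = 0.132).

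Under heme and LPS the genotypes also differed directly in these runs. Clec2d was higher in the knockout by 2.85 ± 0.52 (limma adjusted p = 0.00428), Cd69 by 2.81 ± 0.61 (limma adjusted p = 0.0129), Clec12a by 1.71 ± 0.26 (limma adjusted p = 0.000965) and Clec4a1 by 2.10 ± 0.52 (limma adjusted p = 0.0304). Clec4b1 was lower, at -1.47 ± 0.32 (limma adjusted p = 0.0129), in the direction of Clec7a. Clec4a1 was not called with the replicate block (1.54, adjusted p = 0.0863) nor without wild-type array a (1.55) or b, or knockout array c, d or e. Cd69 and Clec4b1 were not called without wild-type array b or c, and with quantile normalization Cd69 was at 1.35, with an adjusted p of 0.111.

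**Figure D3:**
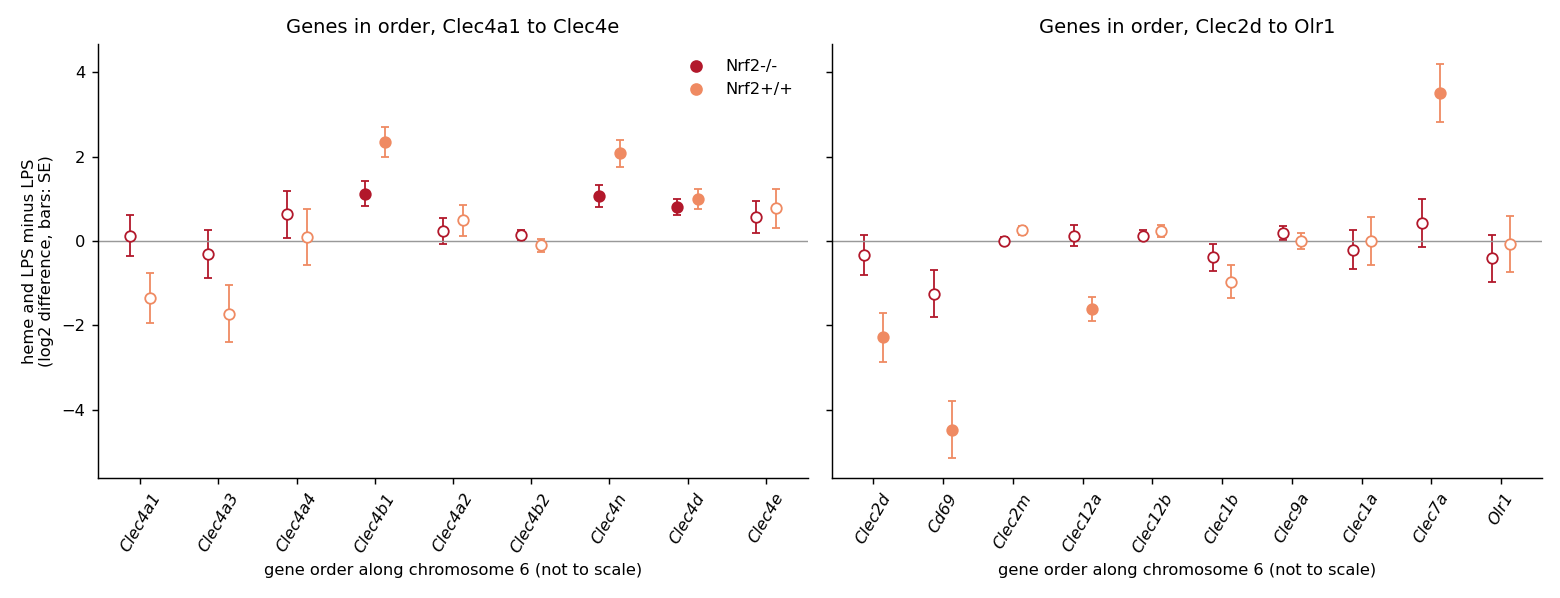
Heme and LPS minus LPS (log2 difference, bars SE) for the measured genes of the 2 lectin clusters of chromosome 6, in gene order and not to scale. Filled points passed an adjusted p of 0.05 (limma). In wild type Clec4b1, Clec4n, Clec4d and Clec7a stand above 0 and Clec2d, Cd69 and Clec12a below it, and in the knockout Clec4b1, Clec4n and Clec4d stand above 0.

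Related receptors outside the 10 were counted in the same way. Over all genes, 8.34% were higher and 6.35% lower with heme in wild type, and 4.1% and 2.67% in the knockout. Of 16 other scavenger receptors 0 were higher and 1 was lower with heme in wild type, Scarb2, a lysosomal membrane protein of the CD36 family, by -0.78 ± 0.20 (limma adjusted p = 0.0159). That call was lost without array a of the heme group (-0.51) or array b or c of the LPS group. Cxcl16 and Stab2 differed by -1.03 ± 0.46 and -0.97 ± 0.48 (limma adjusted p = 0.187 and 0.245). In the knockout 0 of the 16 were called by limma and 2 had an unadjusted p under 0.05, Colec12 at -0.92 ± 0.40 (limma adjusted p = 0.246) and Scarb2 at -0.41 ± 0.17 (limma adjusted p = 0.204). Scarf2 was at -0.59 ± 0.45 (limma adjusted p = 0.612).

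Of 25 other C-type lectins 2 were higher and 4 lower with heme in wild type, against 8.34% and 6.35% of all genes. In the knockout 2 were higher and 1 lower, against 4.1% and 2.67% of all genes. Besides genes of the clusters these were Pla2r1, Cd302, an endocytic lectin, and Cd72, an inhibitory co-receptor best known from B cells. Cd302 rose by 0.77 ± 0.13 in the knockout (limma adjusted p = 0.00308) and by 0.66 ± 0.16 in wild type (limma adjusted p = 0.0121). Cd72 averaged -0.44 ± 0.23 (SD, n = 5) in knockout under heme and LPS, against -1.49 ± 0.19 (n = 3) in wild-type cells. Its heme effect differed between the genotypes by 1.03 ± 0.21 (limma adjusted p = 0.0364), being 0.02 in the knockout and -1.0 in wild type, although 14 of 26 alternatives lost that call.

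Pla2r1, the M-type phospholipase A2 receptor, was the lectin that fell in the knockout, by -1.25 ± 0.35 (limma adjusted p = 0.0443). With the replicate block it was -1.1, with an adjusted p of 0.116, and it was lost without array c, d or e of the heme group or array b, c or d of the LPS group. Clec5a differed by 1.23 ± 0.67 in the knockout (limma adjusted p = 0.391).

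Downstream of the lectins, 16 signalling genes were examined. With heme in wild type 1 was higher and 3 lower, against 8.34% and 6.35% of all genes. Their median was -0.34, against 0.00 over all genes. Inpp5d, the lipid phosphatase SHIP1, rose by 1.32 ± 0.42 (limma adjusted p = 0.0486). Malt1, the protease of the CARD9 complex, differed by -1.17 ± 0.32 (limma adjusted p = 0.024), Vav1, an exchange factor, by -1.11 ± 0.22 (limma adjusted p = 0.00315) and Fcer1g, the gamma chain to which Clec4e, Clec4d and Clec4n couple, by -0.88 ± 0.27 (limma adjusted p = 0.0362). Thus the adaptor fell where Clec4n and Clec4d rose.

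Among these, Vav1 held its call in each of 17 alternatives. Inpp5d lost it without any array of the heme group except a or without array a or b of the LPS group, Malt1 without array a of either group (-1.02 and -0.89) and with quantile normalization (-0.33, adjusted p = 0.497), and Fcer1g without array a or c of the heme group or any array of the LPS group. Src and Nfatc2 differed by -1.78 ± 0.60 and -0.86 ± 0.37 (limma adjusted p = 0.063 and 0.169). In the knockout 0 of the 16 were called with heme by limma, where 6.77% of all genes were. Only 1 had an unadjusted p under 0.05, Syk at 0.67 ± 0.28 (limma adjusted p = 0.214), while Vav3 was at -0.58 ± 0.28.

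The transcription factors examined were 16 listed as acting on one or more of the members, and such action was not tested here. With heme in wild type 4 were higher, Spic, Cebpa, Ppard and Nfe2l2 itself, and 2 were lower, Maf and Nr1h3. Over all genes 8.34% were higher and 6.35% lower. The call for Nfe2l2 was lost with values of 0 as missing (limma adjusted p = 0.106). Spic, the factor of iron-recycling macrophages, averaged 5.15 ± 1.37 under heme and LPS, against 0.66 ± 0.65 under LPS (SD, n = 3 each), a rise of 4.49 ± 0.61 (limma adjusted p = 0.000159). Cebpa, a myeloid factor, averaged 0.96 ± 1.40, against -3.49 ± 0.72, and rose by 4.45 ± 0.61 (limma adjusted p = 0.000168). Ppard, a nuclear receptor for fatty acids, averaged 2.41 ± 0.37, against -1.08 ± 0.75, and rose by 3.49 ± 0.39 (limma adjusted p = 2.71e-05).

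In the knockout 4 factors were higher with heme and 1 was lower, where 4.1% of all genes were higher and 2.67% lower. Spic averaged 3.85 ± 0.78 under heme and LPS (SD, n = 5), against 1.38 ± 0.55 under LPS (n = 4), and rose by 2.47 ± 0.50 (limma adjusted p = 0.00807). Cebpa rose by 1.92 ± 0.50 (limma adjusted p = 0.0334) and Ppard by 1.40 ± 0.32 (limma adjusted p = 0.0161), or with the replicate block an adjusted p of 0.0561. Rxra, the partner of PPAR and LXR receptors, named after its value was seen, rose by 0.71 ± 0.15 (limma adjusted p = 0.0122). Maf was the factor that fell, by 1.08 ± 0.17 (limma adjusted p = 0.00157). The call for Cebpa was lost without array b or c of the heme group or array a, b or d of the LPS group. Between the genotypes the heme effect differed by -2.53 for Cebpa and -2.09 for Ppard, knockout minus wild type. Neither was called (limma adjusted p = 0.23 and 0.0751), and of 26 alternatives 1 called Cebpa and 4 called Ppard.

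Nr1h3, the liver X receptor alpha, averaged 0.92 ± 0.51 in knockout under heme and LPS, against 1.01 ± 0.16 under LPS, and -0.93 ± 0.42 in wild type under heme and LPS, against 0.93 ± 0.23 under LPS. Its heme effect differed between the genotypes by 1.78 ± 0.36 (limma adjusted p = 0.0275), a call lost in 11 of 26 alternatives. Maf, a factor of mature resident macrophages, averaged -1.75 ± 0.40 in knockout under heme and LPS, against -0.67 ± 0.16 under LPS, and -3.47 ± 0.23 in wild type under heme and LPS, against -0.92 ± 0.17 under LPS. Its effect differed by 1.47 ± 0.27 (limma adjusted p = 0.0161), but its probes disagreed, and with the probe least often at 0 the difference was 0.45, with an adjusted p of 0.633. Klf4 and Irf4 differed with heme in wild type by -1.59 ± 0.71 and 1.16 ± 0.55 (limma adjusted p = 0.189 and 0.226), and Bach1 in the knockout by -0.62 ± 0.40.

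**Figure D4:**
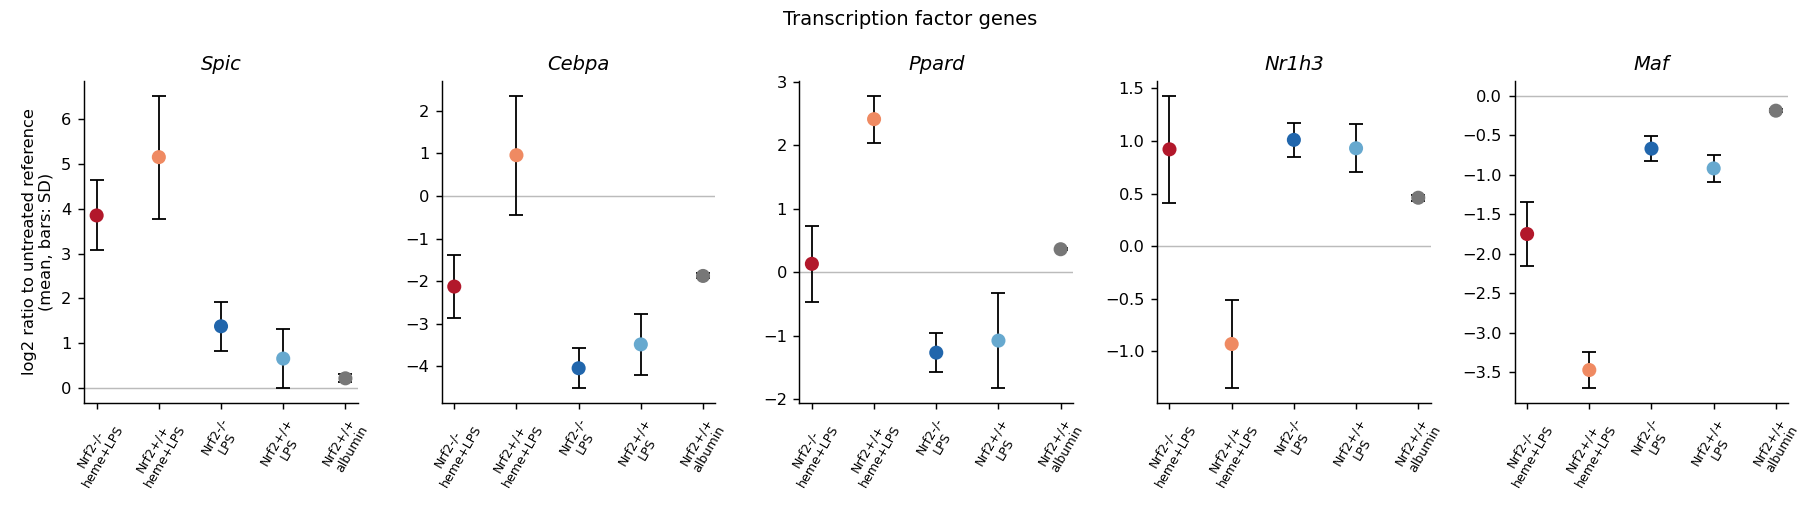
Mean log2 ratio to the untreated reference (bars SD, 3 to 5 arrays) of 5 transcription factor genes in the 5 groups. Spic, Cebpa and Ppard stand higher with heme than with LPS alone in both genotypes, while Nr1h3 stands at 0.92 in knockout and -0.93 in wild type under heme and LPS.

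For each member called under LPS or heme, the non-members whose log2 ratios ran closest to it over the 18 arrays were found by the root mean square difference. Clec7a was closest to Clec4b1 (0.64), Mturn (0.73) and Suco (0.75), where its own spread was 1.37 on the same measure. Its nearest gene was thus another C-type lectin of chromosome 6. Clec4e was closest to Tnf, the cytokine (0.53), Procr (0.54) and Traf1 (0.60), against a spread of 1.82. Cd36 was closest to Slc41a2 and D230025D16Rik (0.27 each) and Pla2g5 (0.28), against 0.52, and Mrc1 to Rnase4 (0.29), Selenop and Smim14 (0.31 each), against 0.59.

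Clec4d was closest to Psma5 (0.30), Pvr and Kdm6b (0.36 each), against 0.78, and Clec4n to Mapre3 (0.38), Nploc4 (0.41) and Abcb6 (0.43), against 0.81. Msr1 was closest to Pgs1 (0.33), Abi1 (0.35) and 4930453N24Rik (0.36), against 0.94. Olr1 was closest to Tfec, a factor of the MITF family (0.81), and to Trim36 and Spryd7 (0.82 each), against 1.41. Marco had the most distant nearest genes, Exoc3l4 (0.97), Inhba (1.1) and Nod2 (1.15), against 2.14. The arrays share 1 reference and fall into 5 groups, which the distances share.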

How the data were processed

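Values were read from the deposited table of 18 arrays. The submitters' processing notes name Agilent Feature Extraction, version 10.5.1.1. The deposited values are log10 ratios of Cy5 (sample) over Cy3 (reference), with the dyes per the labels and the base inferred from the values' form and range (-2.15 to 3.59), since no source states it. On another base every difference would scale in proportion. Every array had a median of 0. They were put on the log2 scale. No source used here states the background or dye correction or the genotype of the reference, and spot intensities were not used here, so a value of exactly 0 may be a ratio of 1 or a spot without a usable signal. The number of arrays limits the precision.

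Of 44397 features 33026 had a gene symbol. Probes were averaged per gene, and genes were not filtered. Group means were fitted over all 18 arrays with limma 3.58.1 (lmFit, eBayes; R 4.3.3). P values were two-sided and adjusted over 22485 genes (Benjamini-Hochberg), and genes under 0.05 were called. Unadjusted p values under 0.05 were counted in the members, lists and clusters, not over all genes. The fit was tested on simulated data with independent normal noise and the same spread of a gene in every group. Those data held no added zeros, unequal spreads or deviations shared by letter, so the test does not cover them. Replicates are separate per the design text. Same-lettered arrays deviated together for heme in the knockout (r 0.22 to 0.59) and for knockout against wild type under LPS (0.20 to 0.58) and under heme and LPS (0.23 to 0.53), so the letter served there as a block beside the main result. The block was also fitted in the other comparisons, where same-lettered arrays did not all deviate together and the lowest r was -0.02. Yet r reached 0.48 for heme in wild type and 0.59 for the difference of the heme effects. Arrays of different letters reached 0.36 for heme in either genotype.

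The members, lists and tests were chosen with earlier results of these data known. All members were named; of each list, up to 4 called genes per comparison and 2 not called, by size, and the 3 genes closest to each member. Genes named for being in a count of 5 or fewer or in a cluster were chosen after their values were seen. Markers of dendritic, B, T and NK, erythroid, endothelial and stromal cells were also counted. Alternatives covered probe summary, normalization, zeros, the samples fitted and left-out arrays.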

Additional observations from a re-analysis of the deposited data

Results flagged for a closer look

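Single arrays stood far from the rest of their group in 7 of 81 groups of 4 or 5 arrays tested, over 41 genes. The test's own rate of about 1 in 20 assumes independent, normally spread values. Values of exactly 0 and arrays shared by the genes break that, so the count cannot be set against the rate. Among the members this was Cd163, at -0.31 on array d of the knockout LPS group where the other 3 arrays were at 0. Knockout array a under heme and LPS stood apart for Clec5a (0.00), Syk (1.0), Maf (-2.44) and Bach1 (2.26). Vav1 was at -0.70 on array b and Irf4 at -1.73 on array d of the knockout LPS group, where the other Irf4 arrays were at 0.

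The test of the difference itself called the heme effect as differing between knockout and wild type for Clec12a (1.74), Cd72 (1.03), Maf (1.47) and Nr1h3 (1.78). Each is a log2 difference, knockout minus wild type. Of 26 alternatives, 13 lost the call for Clec12a, 14 for Cd72, 11 for Nr1h3 and 4 for Maf. With the probe least often at 0, Maf was at 0.45 (limma adjusted p = 0.633).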

How the results depend on the processing

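Over 29 settings, 18 of which left out 1 array, the members gave 1326 values, of which 1245 kept their direction and their side of the threshold, 40 lost a call, 10 gained one and 31 turned direction without a call in either setting. Fits on only the compared groups called 2 members with heme in wild type, 0 in the knockout and 1 between genotypes under heme and LPS, and against albumin they lost Marco under LPS (adjusted p = 0.0589) and Clec7a under heme and LPS (3.29, adjusted p = 0.0598); over all genes they called 1545 against 3303, 752 against 1523 and 317 against 1189, 116 against 213 for the difference of the heme effects, and 0 against 1 between genotypes under LPS. Fits on only the compared groups called more genes than the main fit for LPS against albumin, 7530 against 6433. For heme and LPS against albumin they called 5918 against 6142. Without the LPS-treated arrays lettered a, heme in the knockout gave 0 members, the difference of the heme effects 1 (Clec7a), and the genotypes under LPS 6 genes. Over all genes that setting called 1798 for heme in the knockout and 286 for the difference. Leaving out single arrays gave 0 to 3 members for heme in the knockout, 0 to 1 for the difference of the heme effects and 1 to 3 between genotypes under heme and LPS; over all genes it gave as few as 951 for heme in the knockout (without LPS array a), 135 to 323 for the difference and 1 to 3 between genotypes under LPS.

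With the replicate letter as a block, the difference of the heme effects gave 1 member (Cd36, -1.03, limma adjusted p = 0.0424). Heme in wild type added Msr1 (limma adjusted p = 0.00933), and the genotypes under LPS gave 0 genes. All same-lettered arrays deviated together only in the last of these. In the others r was as low as 0.01. Beside the changes given with the results, the block changed no call of a member.

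Values that turned direction were small. Quantile normalization turned Mrc1 (0.12) under LPS against albumin, Olr1 (0.61) with heme in wild type, Clec4e (0.01) between genotypes under LPS and Clec4d (-0.05) under heme and LPS, where the block gave -0.14. Without the arrays lettered a, Clec7a was at 0.28 for LPS against albumin, Olr1 at 0.10 for heme in wild type, Mrc1 at -0.02 and Clec4e at 0.22 between genotypes under LPS, and Clec4e at 0.13 under heme and LPS. With values of 0 as missing Nfatc2 was at 0.40 for heme in wild type, and Olr1 gave no value against albumin. Leaving out single arrays ranged from -0.51 to 0.28 for Clec7a under LPS against albumin, and with heme in wild type from -0.58 to 1.02 for Marco and -0.44 to 0.51 for Olr1. For the difference of the heme effects it ranged from -0.59 to 0.08 for Cd163, -0.64 to 0.27 for Clec4e and -0.92 to 0.04 for Olr1. Between genotypes under LPS it ranged from -0.74 to 0.12 for Msr1, -0.08 to 0.59 for Cd163, -0.05 to 0.21 for Mrc1 and -0.35 to 0.41 for Clec4e, and under heme and LPS from -0.06 to 0.20 for Clec4d and -0.57 to 0.24 for Clec4e. The causes were not tested. With 3 to 5 arrays a group and no intensities used, signal over background could not be read, and values of 0 limit Cd163 and Olr1 most among the members.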

Other observations

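LPS alone moved further genes around the members in wild type. Among the other scavenger receptors, Scarb2 (0.87 ± 0.20, limma adjusted p = 0.0046), Cxcl16 (1.38 ± 0.46, limma adjusted p = 0.0355) and Scarf1 (1.07 ± 0.37, limma adjusted p = 0.0426) were higher than under albumin. Lrp1, a large endocytic receptor, was lower, at -0.69 ± 0.15 (limma adjusted p = 0.00366). Among the signalling genes Malt1 rose by 4.04 ± 0.32 (limma adjusted p = 6.61e-07). Inpp5d fell by 2.28 ± 0.42 under LPS (limma adjusted p = 0.000822).

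Markers of other cell types were counted for heme against LPS in wild type, where 8.34% of all genes were higher and 6.35% lower. Of 7 endothelial markers 0 were higher and 1, Kdr, was lower, at -5.11 ± 0.58 (limma adjusted p = 3.14e-05). Of 6 stromal markers 1 was higher and 1 lower. None of 9 dendritic, 5 B, 6 T and NK and 5 erythroid markers was called by limma, and 0 had an unadjusted p under 0.05.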
